A study of Mus musculus with 2 samples.

Results

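The Dlk1-Dio3 imprinted domain of mouse chromosome 12 was described in a genome-wide map of DNA methylation of the day 6.5 epiblast, the cell layer from which the fetus and its germ cells later form. It was taken as the DNA from 50 kb outside Dlk1 to 50 kb outside Dio3 by RefSeq positions, chr12:109402485-110331097 in mm10, and held 11598 of the 956515 CpGs of the chromosome. Its 6 members, of 49550 genes in the gene table on the autosomes and the X, were Dlk1, Meg3, Rtl1, Rian, Mirg and Dio3. No measured value entered the rule that chose them, although earlier results of these data were known.

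The study's single group was wild-type XX epiblast of the C57Bl6/J strain at embryonic day 6.5, from natural matings without embryo culture, dissected by hand and sexed by PCR on extraembryonic tissue. The labels list 2 samples, and the counts came as 1 table without a column per sample, so no value has a replicate error and no p-value was computed. The labels do not say how many embryos each sample held. C57Bl6/J is inbred, so reads from the maternal and the paternal chromosome cannot be told apart. In addition, a level between the extremes can come from 1 methylated chromosome in every cell or from differing cells, and these cannot be told apart.

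In an imprinted domain, genes are active from only 1 parental chromosome, according to methylation laid down in the egg or the sperm at a control region. In this domain the paternal chromosome expresses the protein-coding genes Dlk1, Rtl1 and Dio3, and the maternal chromosome expresses the noncoding RNAs Meg3, Rian and Mirg, which carry many snoRNAs and microRNAs. The control region is known to lie between Dlk1 and Meg3 and to be methylated on the paternal chromosome from sperm onward, whereas the Meg3 promoter is known to gain its paternal methylation only after fertilization.

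Levels are methylated read counts over all read counts, in percent, with both strands added. Values in parentheses are exact Clopper-Pearson 95% intervals, which cover counting error only. Neighboring CpGs lie on the same reads, and reads have no molecular identifiers, so these intervals can be too narrow. A region was called low when its interval lay under 20%, intermediate when it lay within 20% to 60%, high when it lay over 60%, and otherwise unresolved. Autosomal CpGs had 6.54 reads on average, and CpGs of the domain had 7.53.

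Promoter sequences of the members are shown because the methylation of their CpGs, set in capitals, ran from low at Dio3 to nearly complete at Mirg. They are RefSeq sequences of GRCm38.p6, the assembly behind mm10, on the plus strand, and each CpG in them stood at the position given by the methylation table. Of the 6 members 5 had a promoter in the sequence table, and that of Rian held no CpG. Meg3 and Mirg are shown from 250 bases before to 50 bases after the transcript start, and Dlk1 and Dio3 up to the base before it.
Meg3, chr12:109540746-109541045: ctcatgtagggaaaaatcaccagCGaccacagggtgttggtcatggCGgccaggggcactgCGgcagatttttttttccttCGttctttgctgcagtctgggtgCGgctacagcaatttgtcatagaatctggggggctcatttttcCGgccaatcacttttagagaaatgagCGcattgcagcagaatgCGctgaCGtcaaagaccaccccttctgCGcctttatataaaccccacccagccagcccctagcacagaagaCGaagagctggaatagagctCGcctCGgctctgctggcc
Mirg, chr12:109734731-109735030: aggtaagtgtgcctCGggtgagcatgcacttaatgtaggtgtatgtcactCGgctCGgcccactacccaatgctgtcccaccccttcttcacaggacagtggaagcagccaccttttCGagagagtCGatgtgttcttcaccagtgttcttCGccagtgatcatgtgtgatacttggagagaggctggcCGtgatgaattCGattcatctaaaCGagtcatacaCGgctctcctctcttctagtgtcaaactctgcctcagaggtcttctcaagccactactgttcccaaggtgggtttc
Dlk1, chr12:109452573-109452822: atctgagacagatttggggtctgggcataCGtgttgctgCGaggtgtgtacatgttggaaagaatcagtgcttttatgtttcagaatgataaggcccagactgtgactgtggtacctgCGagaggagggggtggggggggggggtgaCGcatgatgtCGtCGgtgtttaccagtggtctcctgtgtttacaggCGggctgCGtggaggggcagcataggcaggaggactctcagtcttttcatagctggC
Dio3, chr12:110278980-110279229: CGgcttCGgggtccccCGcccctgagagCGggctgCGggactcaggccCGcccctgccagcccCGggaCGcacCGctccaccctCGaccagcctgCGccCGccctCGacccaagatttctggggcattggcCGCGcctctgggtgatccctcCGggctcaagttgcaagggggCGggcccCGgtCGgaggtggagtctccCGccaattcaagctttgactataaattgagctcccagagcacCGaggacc

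Most of the domain was highly methylated, and the departures from this lay at few places. The domain as a whole was at 70.6% (70.3% to 70.9%), compared with 67.4% over the rest of chromosome 12. Autosomes ranged from 63.1% to 68.0%. Of its 928 windows of 1 kb, 815 were measured, with at least 5 CpGs with a read and 20 read counts. Among these, 622 (76.3%) were high, 21 (2.58%) intermediate, 9 (1.10%) low and 163 unresolved. Of 1410808 measured autosomal windows, 61.2% were high, 2.24% intermediate and 1.71% low, so the number of intermediate windows in the domain was near the background. From 50 kb before Dlk1 to the end of Meg3 stood 15 of the 21, among 163 measured windows (9.20%). The other 6 were among 652 measured windows beyond Meg3 (0.920%). The share called intermediate also varied with the number of CpGs in a window, from 0.378% to 9.24% between the autosomal CpG classes. Among windows with 20 to 39 CpGs, 6 of 23 up to the end of Meg3 and 1 of 69 beyond it were intermediate. Among those with 5 to 19 CpGs, these were 7 of 137 and 5 of 576. None of the 150 measured windows from the end of Meg3 to the end of Mirg was intermediate or low. The window across the end of Mirg, chr12:109749001-109750000, was intermediate (51.4%, 112 of 218 read counts) and was counted beyond it.

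**Figure D1:**
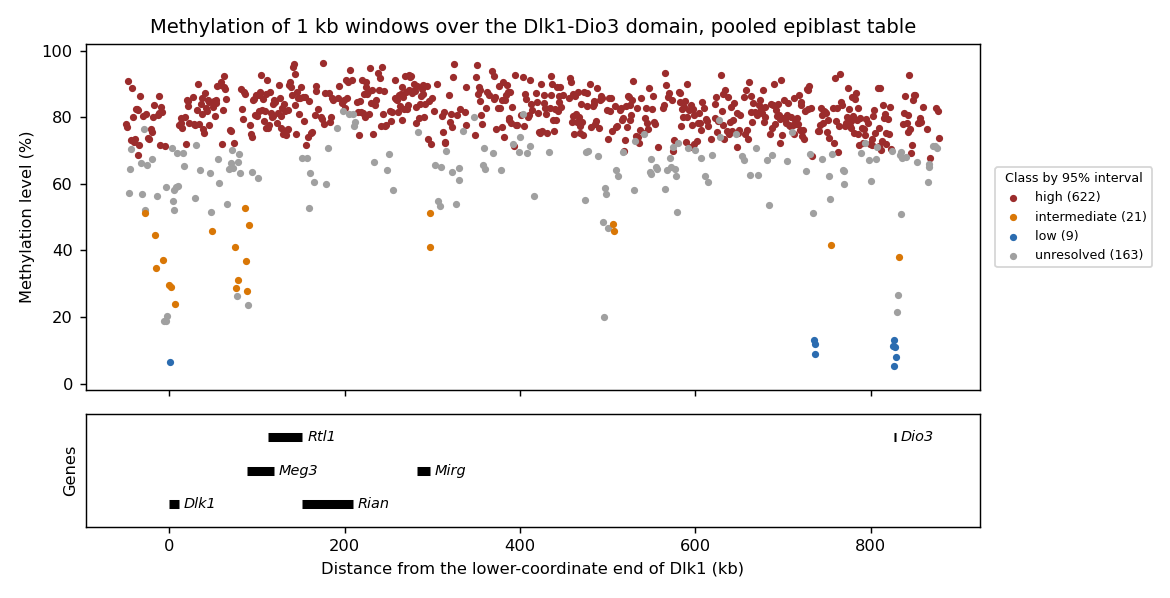
Methylation level in percent (vertical axis) of each of the 815 measured 1 kb windows against distance from the lower-coordinate end of Dlk1 in kb (horizontal axis), colored by class, with the members drawn as bars below. Of the 21 intermediate windows 15 lie between 50 kb before Dlk1 and the end of Meg3, and the 9 low ones form 3 groups, inside Dlk1, before Dio3 and over Dio3.

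Between Dlk1 and Meg3, a gap of 77.7 kb that holds the known control region, methylation was high except in a few narrow places, the longest of them near Meg3. The 4 adjacent windows of chr12:109527001-109531000 had levels within 20% to 60%, the longest such run between the genes. This stretch began 13995 bp and ended 9996 bp before the start of Meg3. It held 106 CpGs, and 233 of its 723 read counts were methylated, at 32.2% (28.8% to 35.8%). The 2 kb before it stood at 70.5% (65.5% to 75.2%) and the 2 kb after it at 67.7% (59.9% to 74.8%). The DNA from Dlk1 up to the stretch was at 77.2% (76.1% to 78.3%).

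Inside the stretch, the first window, with 32 CpGs, was at 40.9% (81 of 198 read counts). The second, with 40 CpGs, was at 28.9% (95 of 329). The third, with 15 CpGs, was at 26.2% (22 of 84), and its interval was too wide for a class. The last, with 19 CpGs, was at 31.2% (35 of 112). Apart from the window at 26.2%, these windows were called intermediate. The steps of 250 bp were uneven. At the side facing Dlk1 they went from 77.8% in the first 250 bp (14 of 18 read counts) and 57.9% in the next 250 bp to 21.9% in the 250 bp after that (23 of 105, 15 CpGs). Higher values came again in the sparser steps that followed, at 61.1% (11 of 18) and 40.8% (20 of 49), and, beyond a step at 24.0%, at 51.3% (20 of 39). On the side facing Meg3 the last 250 bp were at 28.6% (4 of 14), and the first 250 bp beyond stood at 56.7% (17 of 30). Both strands gave similar levels, with 31.3% (26.9% to 36.0%) on the plus strand and 33.4% (28.2% to 39.0%) on the minus strand.

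The CpGs of the stretch were not alike, and its densest parts were among the least methylated. With at least 5 reads were 87 of the 106 CpGs, whose median level was 25% (quartiles 14.3% and 40.8%). Of these, 34 were under 20%, 51 between 20% and 80%, and 2 over 80%, and 10 had no methylated read. In the rest of the gap before the Meg3 run described below, 649 CpGs had 5 reads, with a median of 80%. Only 6 of those (0.924%) were under 20%, and 1 had no methylated read. The 250 bp from 109528251 to 109528500 held 29 CpGs and stood at 24.0% (54 of 225). Their first CpGs were high, with 8 of 11 reads methylated at 109528253 and 8 of 10 at 109528257. Then followed 19 CpGs within 116 bp, from 109528329 to 109528444, each at 20% or less, with 17 of 146 read counts methylated. These 19 CpGs had only 5 to 10 reads each and lie close enough to be spanned by the same reads, so they may rest on few molecules. A second group of 6 CpGs, from 109527609 to 109527653, had 2 of 37 read counts methylated. The most methylated CpG of the stretch with 5 or more reads, at 109527110, had 10 of 11 reads methylated. When only the first CpG with a read was kept in each 100 bp, the stretch kept its bounds and stood at 40.5% (34.1% to 47.2%, 227 read counts). Other settings moved the bounds. With an intermediate class from 30% to 70%, the longest run lay at chr12:109530001-109534000, which shares only its first window with the stretch, at 56.1% (51.0% to 61.0%). With 2 kb windows it was 6 kb long at 45.2% (42.2% to 48.2%), and on the minus strand 6 kb long at 39.0% (34.2% to 44.0%).

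**Figure D2:**
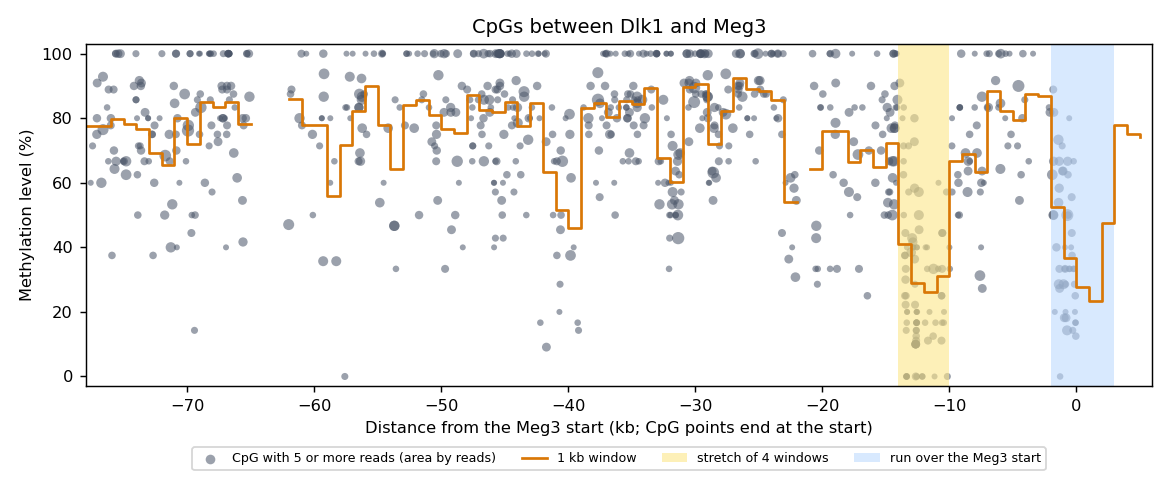
Methylation level in percent (vertical axis) of single CpGs with at least 5 reads, point area by reads, and of 1 kb windows (line, broken where a window was not measured), against distance from the start of Meg3 in kb (horizontal axis). The shaded stretch of 4 windows is at 32.2% and the shaded run over the Meg3 start at 37.1%, with 74.6% between them.

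Runs of windows at these levels were common in the genome when short and rare when long. On the autosomes, 113496 runs of adjacent windows within 20% to 60% were found, with a median length of 1 window. Of these, 806 (0.710%) had 4 or more windows, and 87 (0.0767%) also had at least 106 CpGs. The stretch was chosen from its values, so this rank is a description. The usual level of a window differed with its CpG number. Autosomal windows with 20 to 39 CpGs had a median of 77.9% (quartiles 59.9% and 85.3%), and 9.24% of them were intermediate. Those with 40 to 79 CpGs had a median of 8.86% (5.78% and 17.8%). Against these, the first window of the stretch lay below the lower quartile of its class, and the second, with 40 CpGs, lay above the upper quartile of its own. The third and the last lay below 71.7%, the lower quartile of windows with 10 to 19 CpGs. The windows of a run were selected for levels within 20% to 60%. These positions against the quartiles were therefore all but fixed by that choice and are a description only.

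**Figure D3:**
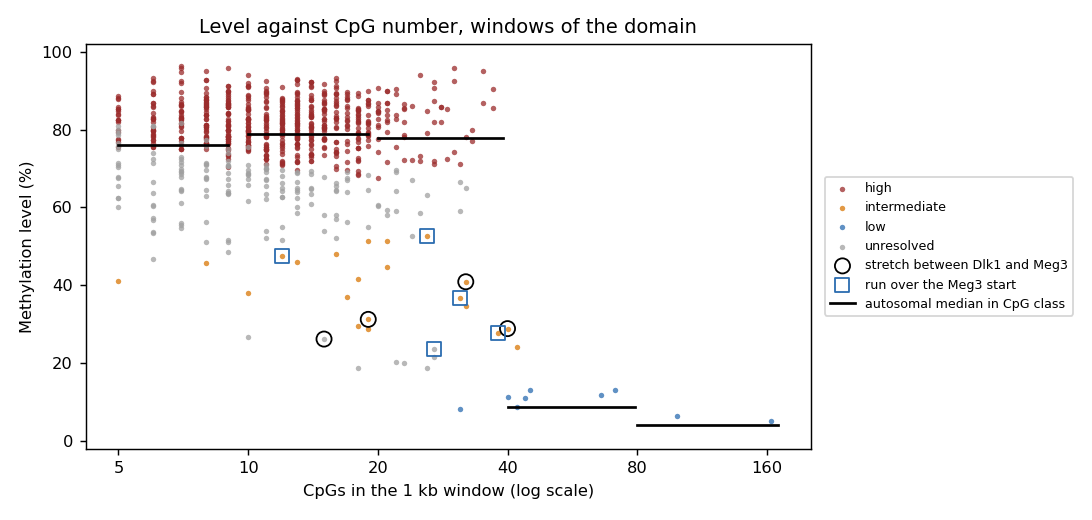
Methylation level in percent (vertical axis) against the number of CpGs per 1 kb window (horizontal axis, log scale) for the measured windows of the domain, with autosomal medians of each CpG class as black lines. The 4 windows of the stretch (circles) lie between 26.2% and 40.9%, and the 5 of the run over the Meg3 start (squares) lie between 23.5% and 52.7%.

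Meg3, a long noncoding RNA of the maternal chromosome, was intermediate at its start and highly methylated over the rest of its length. Its lower-coordinate end, which is its start in the promoter table (chr12:109540996), was at 32.3% (28.1% to 36.7%, 474 read counts, 1 kb on either side). A run of 5 windows within 20% to 60% covered the start, from 1.99 kb before it to just over 3 kb after it (chr12:109539001-109544000), at 37.1% (34.0% to 40.3%) over 134 CpGs. Its windows stood at 52.7% (119 of 226 read counts), 36.7% (87 of 237), 27.8% (66 of 237), 23.5% (36 of 153) and 47.6% (39 of 82) in order of coordinate. The lowest value thus lay inside the gene, 1 to 2 kb beyond the start. It falls within the interval of the window before it (22.2% to 34.0%), so the place of the minimum is not resolved. Apart from the window at 23.5% all were called intermediate. Between the stretch and this run, 8 kb of DNA were at 74.6% (70.8% to 78.2%). On the autosomes, 27 runs were at least as long and held at least as many CpGs.

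Within the Meg3 promoter sequence shown above, 22 of 88 read counts were methylated (25%, 16.4% to 35.4%), which was unresolved by its interval. Among 19066 measured promoters of 300 bp on the autosomes, 3.11% were intermediate, 65.1% low and 11.2% high. Its 13 CpGs had 4 to 10 reads each. The 3 farthest from the start stood at 33.3%, 66.7% and 75%, and the 3 after the start at 10%, 12.5% and 12.5%. Over steps of 250 bp the level did not fall at the start. It was 30.6% (19 of 62 read counts) in the step from 109540751 and 34.4% (22 of 64) in the step from 109541001. The letters TGACGTCA, the cAMP response element through which this promoter is known to be activated, stood at position -57 from the start, and 1 of 6 reads was methylated at its CpG. That motif reads the same on both strands and occurred in 1.79% of the 32851 promoters of the table. The letters TGCCGC, a form of the motif of the imprint-protecting factor ZFP57 that contains a CpG, occurred once, on the minus strand at position -190. Its CpG had 3 of 4 reads methylated. Searched on both strands, TGCCGC was in 11.6% of all promoters and in no other printed promoter of the domain. A match of letters does not show that the factor was bound. A second promoter of Meg3 in the sequence table, chr12:109545148-109545447, lies inside the gene beyond the run at the start and was not printed. It held 1 CpG, with 2 of 2 reads methylated, too few to be measured. From 1 kb inside either end, the body of Meg3 was at 77.6% (76.1% to 79.1%), and its higher-coordinate end was at 84.5% (77.6% to 89.9%).

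Dlk1 encodes a transmembrane protein related to Notch ligands that holds back adipocyte differentiation. Levels near 30% at its lower-coordinate end gave way to a low, CpG-dense part inside the gene, and an intermediate dip followed further along. That end, 109452485 in the gene table, lies before the transcript start of the promoter table, 109452823. In steps of 250 bp, the first 2 from the lower-coordinate end stood at 30.2% (16 of 53 read counts) and 32.6% (15 of 46). The next, from 109452985 and so soon after the transcript start, were at 8.30% (20 of 241), 3.52% (17 of 483) and 4.67% (12 of 257). With 1 kb on either side, the lower-coordinate end was low, at 8.87% (7.04% to 11.0%, 846 read counts). Most of its CpGs belonged to the near part of a CpG-dense window, chr12:109453001-109454000, whose 99 CpGs were at 6.42% (72 of 1122 read counts). With 500 bp on either side of the end, which leaves out that window, the level was 31.6% (23.3% to 40.9%), or intermediate. This call belongs to the gene-table end, and 500 bp on either side of the transcript start was not computed. The 300 bp promoter of the table, which also lies before the dense window, was at 26.6% (16.3% to 39.1%, 64 read counts). Plus and minus strands gave 12.1% and 4.97% for the 2 kb end window. With the first CpG per 100 bp, it stood at 22.7% (15.7% to 30.9%) and was unresolved.

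The windows on either side of the dense one were intermediate, at 29.6% and 28.9%. From 3.52 kb beyond the lower end, a run of 5 windows (chr12:109456001-109461000, 111 CpGs) was at 41.6% (38.7% to 44.6%). Its windows lay between 52.1% and 59.2% apart from chr12:109459001-109460000, where 42 CpGs were at 24.1% (123 of 511). In this window the lowest well-covered part, 22 CpGs in 250 bp from 109459735, was at 21.4% (69 of 323). The Dlk1 body stood at 35.9% (33.7% to 38.1%), and 4.28% of 28275 autosomal gene bodies were at or below it (median 75.2%, quartiles 68.0% and 80.9%). Part of the dense window lies within this body. At the higher-coordinate end the level was 69.6% (63.0% to 75.6%).

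Rtl1 encodes a retrotransposon-derived protein needed in the placenta, and Rian and Mirg are noncoding RNAs that host snoRNAs and microRNAs. Each was highly methylated along most of its length. In the gene table Rtl1 reaches over 6830 bp of Meg3 and 474 bp of Rian, so values of the neighbors share CpGs. Its span there, 39.5 kb, includes predicted transcripts. The values of its body and ends describe that span and not the coding sequence alone. The Rtl1 body was at 84.9% (83.7% to 86.0%) and the Mirg body at 84.2% (82.2% to 86.1%), both above the upper quartile of autosomal gene bodies. The Rian body, at 78.0% (76.6% to 79.4%), lay between the quartiles. At its lower and higher ends Rtl1 stood at 82.4% and 75.4%. Rian stood at 70.9% (59.6% to 80.6%, 79 read counts), which was unresolved, and 81.1%. Mirg was at 84.1% (77.7% to 89.3%) at its lower end, and the printed promoter there was at 93.4% (57 of 61 read counts). All of its 10 CpGs were at 80% or more, and 6 of them had only methylated reads. The higher end of Mirg departed from this, at 53.6% (47.8% to 59.4%, 302 read counts). The dip began at chr12:109749001, where adjacent windows stood at 51.4% (112 of 218) and 41.1% (23 of 56).

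Dio3 encodes the deiodinase that inactivates thyroid hormones, and its start carried little methylation. Its ends were at 8.66% (7.55% to 9.88%, 2309 read counts) and 8.77% (6.86% to 11.0%), and the whole gene of 1868 bp at 13.0% (11.1% to 15.0%). In the 300 bp promoter 16 of 236 read counts were methylated, or 6.78% (3.92% to 10.8%). Of its 25 CpGs none exceeded 22.2%. The low region was wider than the gene. It spanned 5 windows, chr12:110277001-110282000, with 350 CpGs at 8.47% (7.63% to 9.37%), and its lowest window, with 164 CpGs, was at 5.23% just before the gene. Beyond it a run of 3 windows (chr12:110282001-110285000) stood at 27.4% (22.4% to 32.9%).

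**Figure D4:**
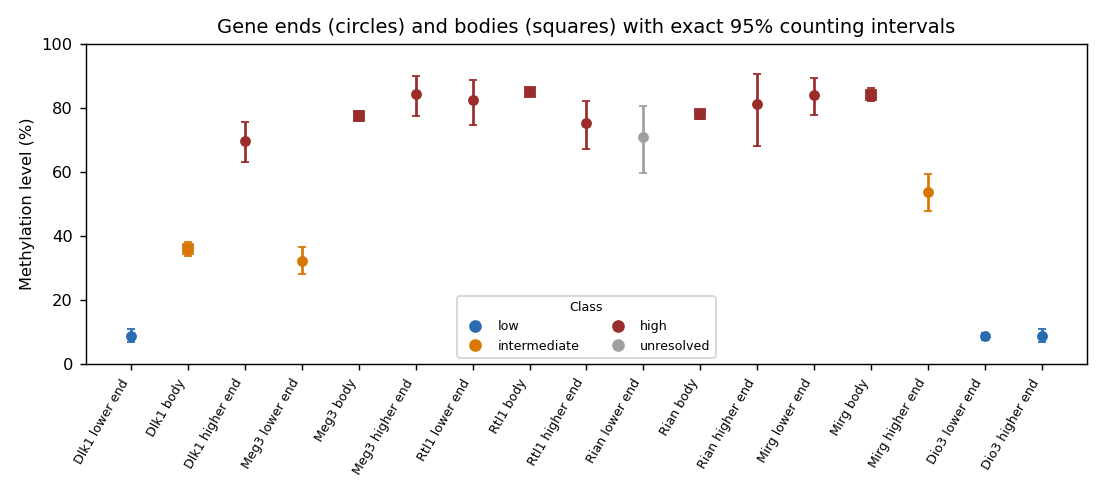
Methylation level in percent (vertical axis) of both ends (circles, 1 kb on either side) and bodies (squares) of the members along the horizontal axis, with exact 95% counting intervals. Of 12 ends 3 are low (Dlk1 lower, both of Dio3), 2 intermediate (Meg3 lower, Mirg higher), 6 high and 1 unresolved; the trimmed body of Dio3 has no length.

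Over the 6 members, 3 of 12 gene ends were low, 2 intermediate, 6 high and 1 unresolved. Of 86804 measured ends of autosomal genes, 16.4% were low, 5.52% intermediate and 55.1% high. Ends of neighboring genes in the domain can overlap, so they are not independent. Some of these calls depended on the setting. The Mirg higher end was unresolved with 2 kb on either side (64.0%, 59.7% to 68.1%), as a mean of CpG fractions (58.1%, 52.3% to 63.7%) and on the plus (51.8%, 43.1% to 60.4%) or minus strand alone (55.2%, 47.2% to 62.9%). The Meg3 start, at 28.1% to 36.7%, was unresolved with the class from 30% to 70%. The Dlk1 lower end was not low with 500 bp on either side or with the first CpG per 100 bp, which left the ends of Dio3 as the 2 low ones.

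**Figure D5:**
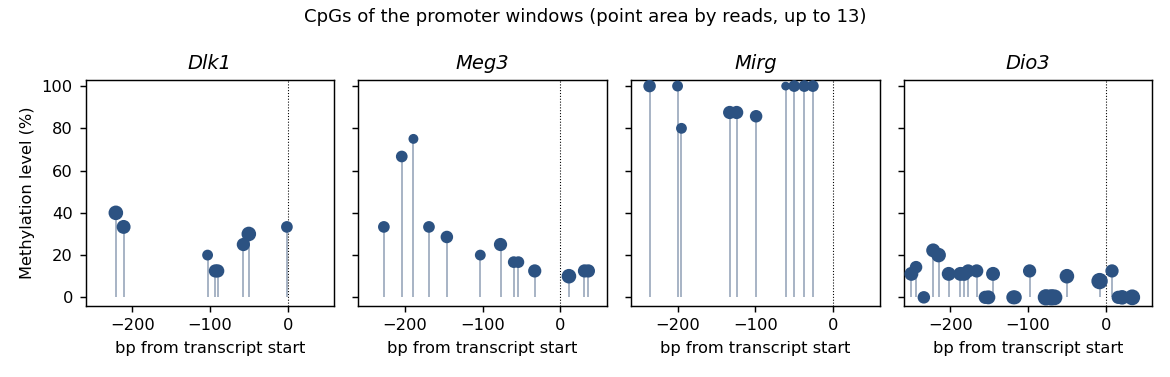
Methylation level in percent (vertical axis) of each CpG with a read in the 300 bp promoters of Dlk1, Meg3, Mirg and Dio3 against its distance in bp from the transcript start (horizontal axis), point area by reads. Mirg lies at 80% or more throughout, Dio3 at 22.2% or less, and Meg3, of which only the printed promoter is drawn, between 10% and 75%.

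The microRNA and snoRNA genes of the domain were highly methylated, apart from 1 microRNA gene beside Dio3. Of 61 microRNA genes in the gene table, taken with 1 kb on either side, 60 were high and 1, Mir1247, was low, with a median of 84.5%. Of 1099 measured autosomal microRNA genes 69% were high, 4.91% intermediate and 10.9% low. Of the 19 snoRNA genes 18 were high and 1 unresolved, with a median of 85.5%, beside 62.4% high, 3.37% intermediate and 4.61% low among 1127 measured autosomal ones. Many of these windows overlap, and 58 of the microRNA genes and all 19 snoRNA genes lie between the end of Meg3 and the end of Mirg. Of 87 measured 2 kb windows there, 82 (94.3%) were high, so the counts repeat the level of this DNA and show nothing particular to the small RNA genes. Mir1247 lies beside Dio3 and was at 6.32% (5.40% to 7.34%), and the higher-coordinate end of the neighboring noncoding gene Dio3os was at 6.39%. The window of that Dio3os end lies within the window of Mir1247, so the 2 values are nearly the same measurement. Next lowest among the other genes of the domain was the higher end of the noncoding gene Gm34081, at 41.6%, which overlaps the run at the Meg3 start. Highest were Mir539 (92.2%), Mir434 (91.9%) and Mir487b (91.8%). Counting only CpGs inside hairpins, Mir1247 had 6 of 213 read counts methylated over 14 CpGs (2.82%). The other 57 hairpins of the sequence table together had 978 of 1126 over 153 CpGs (86.9%, 84.7% to 88.8%). With 20 or more read counts were 23 of those, and all lay between 75% and 100%. Mir434 had 25 of 25.

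Mature sequences of the microRNAs at these extremes are shown from RefSeq, GRCm38.p6, with the seed (bases 2 to 8), which pairs with target RNAs, in capitals. None of the 4 genes shares a seed with another of them.
mmu-miR-1247-5p: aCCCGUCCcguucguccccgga
mmu-miR-1247-3p: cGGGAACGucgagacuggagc
mmu-miR-434-5p: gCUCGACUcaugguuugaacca
mmu-miR-434-3p: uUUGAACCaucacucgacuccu
mmu-miR-487b-5p: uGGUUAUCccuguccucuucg
mmu-miR-539-5p: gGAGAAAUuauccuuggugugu
Over the domain, 114 mature sequences had 104 different seeds, and 10 seeds occurred in 2 sequences each, among them AUGUAAC in miR-379-3p and miR-411-3p.

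Ends of other imprinted genes were set beside the levels between Dlk1 and Meg3. For comparison, 5.52% of all measured ends of autosomal genes were intermediate, 55.1% high and 16.4% low. Of 17 genes known for a maternally methylated control region, 13 had an intermediate end with 1 kb on either side. In all, 14 of 34 ends were intermediate, with a median of 39.8% (30.6% to 54.0%), 10 high, 2 low, 6 unresolved and 2 not measured. Their extremes over all measured ends were Grb10 (6.42%) and Inpp5f (13.3%) at one side and Gnas (92.0%) and Peg3 (86.8%) at the other. Among the 3 with a paternally methylated region, H19 was at 44.9% (41.0% to 48.9%) and Zdbf2 at 54.1% (48.9% to 59.2%) at 1 end each. Rasgrf1 was low at 1 end (10.5%) and high at the other (82.4%). H19 was read at its higher end and Zdbf2, named after its values were seen, at its lower end. The intervals of both lay above that of the stretch between Dlk1 and Meg3 (28.8% to 35.8%) with the settings used throughout. Only the stretch was recomputed under other settings, while H19 and Zdbf2 kept their values, so these comparisons set unlike constructions side by side. The stretch's interval overlapped that of H19 with the first CpG per 100 bp (34.1% to 47.2%) and with 2 kb windows (42.2% to 48.2%). It also did so on the minus strand (34.2% to 44.0%). With the class from 30% to 70%, the longest run (51.0% to 61.0%) lay above H19 and overlapped Zdbf2. The windows were set on gene ends, not on the control regions. No test of these differences was possible without replicates. Of 10 factors known to keep imprints in the embryo, 7 of 20 ends were low, 12 high and 1 intermediate. Among all autosomal ends, 16.4% were low, 55.1% high and 5.52% intermediate. Naa10, 1 of the 10 factors, lies on the X, which those shares do not cover. The lowest ends of the factors were those of Ctcf (3.56%) and Trim28 (4.52%), and the intermediate one was that of Dppa3 (28.9%). All of them were named after their values were seen.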

How the data were processed

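Whole-genome bisulfite sequencing reads methylated cytosine as cytosine and unmethylated cytosine as thymine. The authors deposited counts of methylated and unmethylated reads for each strand of each CpG in 1 table without sample names, taken here as the pool of the 2 samples. The submitters' processing notes name mm10, cutadapt 1.3, Bismark 0.12.5 and Bowtie2 2.1.0. How samples were combined, duplicates removed or reads filtered is not given in the sources used here.

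Counts of both strands were added and not normalized. Gene positions came from a RefSeq table of GRCm38.p6 without strands, in which the spans of Dlk1 and Rtl1 include predicted transcripts. All members and list genes matched. Ends were 1 kb on either side, and bodies left out 1 kb at each end. Windows lay on a fixed grid. The classifier was tested on simulated data in which the reads of each CpG were drawn independently. That test does not cover neighboring CpGs on shared reads, so it cannot show that the intervals are wide enough here. Python 3.11.15, numpy 2.4.6, pandas 2.3.3 and scipy 1.17.1 were used.

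Members, lists and rules were chosen with earlier results of these data known. Named were the members, the 3 highest and 3 lowest other genes of the domain, the 2 highest and 2 lowest of the imprinted lists, and the 10 intermediate windows with most reads. Promoter windows, hairpins, autosomal small RNA genes and CpG classes were added after the files were seen.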

Additional observations from a re-analysis of the deposited data

How the results depend on the processing

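Of 221 values recomputed under 12 alternatives, 180 stayed within their interval or within 1.5 times their count. Among the 180 are the levels of single ends with the class from 30% to 70%, which that setting cannot change. Also among them are the 4 kb length of a run that moved elsewhere and the lengths of 6 kb, at the limit of 1.5 times. None of the 221 values compares groups, so no direction could reverse. The domain level was 70.2% with at least 5 reads per CpG, 72.6% as a mean of CpG fractions and 74.6% with the first CpG with a read per 100 bp, an alternative chosen after seeing the data. With the class from 30% to 70%, intermediate windows numbered 40, low ones 14 and high ones 354. With 2 kb windows there were 5 low and 377 high, of fewer windows. Intermediate windows numbered 12 on the plus strand, 13 on the minus strand and 12 with the first CpG per 100 bp, where fewer reads widen the intervals. The stretch between Dlk1 and Meg3 was at 45.2% with 2 kb windows, which gave it 6 kb, at 39.0% over 6 kb on the minus strand and at 40.5% with the first CpG per 100 bp. With the class from 30% to 70% the longest run moved to chr12:109530001-109534000, at 56.1%, since 2 of its windows were below 30%. The Dlk1 body was at 38.5% as a mean of CpG fractions, 47.2% with the first CpG per 100 bp and 29.4% with no distance left out, where the Meg3 body was at 74.1%. The Mirg body was at 86.7% on the minus strand and the Rtl1 body at 83.2% with the first CpG per 100 bp. High member ends numbered 3 with the class from 30% to 70%. Intermediate ends numbered 1 with that class, where Meg3 was lost, and 1 with 2 kb on either side, as a mean of CpG fractions and on the plus or the minus strand, where Mirg was lost. Low ends numbered 2, without Dlk1, with 500 bp on either side and with the first CpG per 100 bp. Of 108 values of single ends, 14 moved, and those with the class from 30% to 70% could not move. The cause of these shifts was not tested beyond the constructions named. Depth limits single CpGs, which had a median of 7 reads between Dlk1 and Meg3. No paired analysis was possible because the table carries no column per sample.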

Other observations

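Away from the members, further places in the domain departed from high methylation. A low, CpG-dense region without a gene of the table over it, chr12:110187001-110190000, held 153 CpGs at 11.7% (10.2% to 13.3%, 1750 read counts), and the noncoding gene Gm34785 ends at 110183644, before it. At the higher-coordinate end of the noncoding gene Gm34554, 4 windows (chr12:109947001-109951000) were at 50.1% (46.3% to 53.8%). They were uneven, with 1 window of 23 CpGs at 20% (26 of 130 read counts) beside one at 58.6% (173 of 295).

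Before Dlk1, chr12:109436001-109439000 held 70 CpGs at 43.0% (39.1% to 46.9%), with windows at 44.7%, 34.8% and 56.3%. Single windows from 109424001 (51.4%, 93 of 181 read counts) and from 109445001 (37.0%, 67 of 181) were also intermediate. The lowest windows of this flank were nearer to Dlk1 and were unresolved, at 18.75% from 109446001 (33 of 176), 18.9% from 109449001 (23 of 122) and 20.3% from 109450001 (27 of 133). All lie within the 50 kb flank, which stood at 63.9% as a whole. These places were picked from their values, and nothing was tested on them.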
